A study of Rattus norvegicus with 12 samples.

Results

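The piRNA rno_piR_031043 was followed through 12 small RNA libraries of rat liver, as 1 of 701 piRNA names listed in the series. It was chosen by its read counts, which earlier results of these data showed to be high at 48 h after partial hepatectomy, so its read counts and distinct-sequence counts at 48 h are given as a description, with no test. Its sham, 24 h and 168 h counts were known too, so the tests between those groups are not independent of the choice. All libraries came from Fischer-344 rats, an inbred strain. The post-surgery groups were regenerating livers at 24, 48 and 168 h after partial hepatectomy, an operation that takes out some of the liver and leaves the remainder to regrow, with 2 libraries at each time. They were set against 6 libraries of normal, sham-operated liver, named pre_PH. The sources used here do not state the age or sex of the rats, or whether each library stands for 1 animal, several, or a repeat of the same one. Any p-value therefore refers to the variation among libraries, which could be technical. No batch or date was in the labels, and an effect of time cannot be told apart from one of preparing the 2 libraries together.

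PIWI-interacting RNAs, or piRNAs, are short RNAs that bind PIWI proteins, a branch of the Argonaute family, and guide them to complementary transcripts. They are best known from the germ line, where they repress transposable elements, and they are much scarcer in somatic organs such as liver. After partial hepatectomy in the rat, quiescent hepatocytes enter the cell cycle within about a day, division spreads to the other cells of the liver afterwards, and most of the mass has been regained after about a week. The name rno_piR_031043 is the database entry to which the authors assigned the reads. Its sequence, genome position and targets were not analysed here, and no role of this piRNA is stated. In bulk liver, fewer cells of a type and less RNA per cell cannot be told apart.

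The libraries held 20741811 to 31467460 reads in all, of which 120844 to 351818 were assigned to listed piRNAs (0.408 to 1.25% of a library). Between 328 and 446 names were listed in the 48 h libraries, against 129 to 216 in the sham libraries, and 61 names were listed in all 12. The level of rno_piR_031043 is given on 4 scales. RPM, the reads per 1000000, is relative to all reads of the library, the share is relative to listed piRNA reads, and the TMM-scaled CPM, the counts per 1000000, are relative to piRNA reads after a scaling that equalises the bulk of the piRNAs. The last is a ratio to rno_piR_000685, the most abundant piRNA, within the same library. The lowest read count of rno_piR_031043 in any library was 50, far above the 3 reads that a count of 0 would allow.

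In sham liver rno_piR_031043 was a piRNA of moderate abundance with little spread. Its reads numbered from 110 to 298 in the 6 pre_PH libraries, with a median of 190.5. As RPM of library reads this was 4.67 at the lowest, a median of 7.00 and 10.3 at the highest, or 7.27 ± 2.06 RPM (SD, n = 6). The coefficient of variation over these libraries was 0.284, the 11th lowest among the 61 piRNAs listed everywhere, whose median was 0.490. The share of listed piRNA reads varied more, from 0.0478% in replicate 3 (95% Wilson interval 0.0411 to 0.0555%) to 0.169% in replicate 5 (0.151 to 0.190%). Replicate 3 was also the library with the largest share of piRNA reads, 1.25% of its total. By read count rno_piR_031043 ranked between 22nd and 28th in the sham libraries. By mean RPM it stood 24th, below rno_piR_000562 (11.6 ± 2.23 RPM) and above rno_piR_005854 (6.62 ± 3.80 RPM, n = 6 each). The range of rno_piR_005854, 1.39 to 10.2 RPM, held most of that of rno_piR_031043, whereas the range of rno_piR_000562, 9.61 to 15.2 RPM, overlapped it only at its lower end.

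At 24 h, early in regeneration, the level was low. The 2 libraries had 108 and 50 reads, or 3.69 RPM (95% counting interval 3.03 to 4.46) in replicate 1 and 2.18 RPM (1.62 to 2.88) in replicate 2. Both lay below all 6 sham libraries, at a mean of 2.94 ± 1.07 RPM (n = 2) against 7.27 ± 2.06 RPM, a ratio of 0.404. Of the 80 piRNAs that passed the filter on low counts, 15% likewise had both 24 h libraries below all sham libraries on this scale. An exact two-sided permutation test on log2 RPM gave p = 0.0357, the smallest that 28 splits of 2 against 6 libraries can give, and p = 0.0714 adjusted over the 24 h and 168 h comparisons. The 24 h and sham counts were known when the piRNA was chosen, and the sham libraries were the reference for its 48 h level. The test is therefore not independent of that choice. Its adjustment does not cover the choice among 701 names, so nothing is read from either p-value. On the TMM scale the libraries had 887 and 354 CPM, also below the sham range of 916 to 1525 CPM, as was the case for 12.5% of the 80. On the share of piRNA reads replicate 1, at 0.0880%, lay inside the sham range, and so did its 2.40 reads per 1000 reads of rno_piR_000685. The fitted log2 fold change at 24 h was -0.92 ± 0.55 (SE) and did not pass (edgeR quasi-likelihood test, adjusted p = 0.525). It was -1.71 without 24 h replicate 1. Relative to the median of all tested piRNAs it was -0.70, and -0.0013 without 24 h replicate 2. At this time 2.5% of the 80 piRNAs tested passed, 1 higher and 1 lower, and their median log2 fold change was -0.22. By mean RPM rno_piR_031043 stood 27th at 24 h, next to rno_piR_005593 (3.24 ± 0.50 RPM) and rno_piR_020049 (2.72 ± 1.19 RPM, n = 2 each), and neither neighbour differed from it beyond the spread of the libraries.

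At 48 h rno_piR_031043 was far above its level in all other libraries. It had 2881 reads in replicate 1 and 7039 in replicate 2, which are 139 RPM (95% counting interval 134 to 144) and 224 RPM (218 to 229). The lower of these was 13.4 times the highest value found outside 48 h, 10.3 RPM in pre_PH replicate 5. Of the 80 piRNAs tested, 40% had both 48 h libraries above all sham libraries on this scale. However, 18 of the 80 passed the filter on low counts only through the 48 h libraries, so enough reads there were a condition for them. The same holds for the other shares of the 80 in comparisons with 48 h. The mean was 181 ± 60.0 RPM (n = 2) at 48 h against 7.27 ± 2.06 RPM in sham liver (n = 6), a ratio of 24.9, which ran from 19.1 to 30.8 with any 1 of these libraries left out. Of all 11666 reads of this piRNA in the series, 85.0% were in the 48 h libraries, which held 17.7% of all listed piRNA reads.

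**Figure D1:**
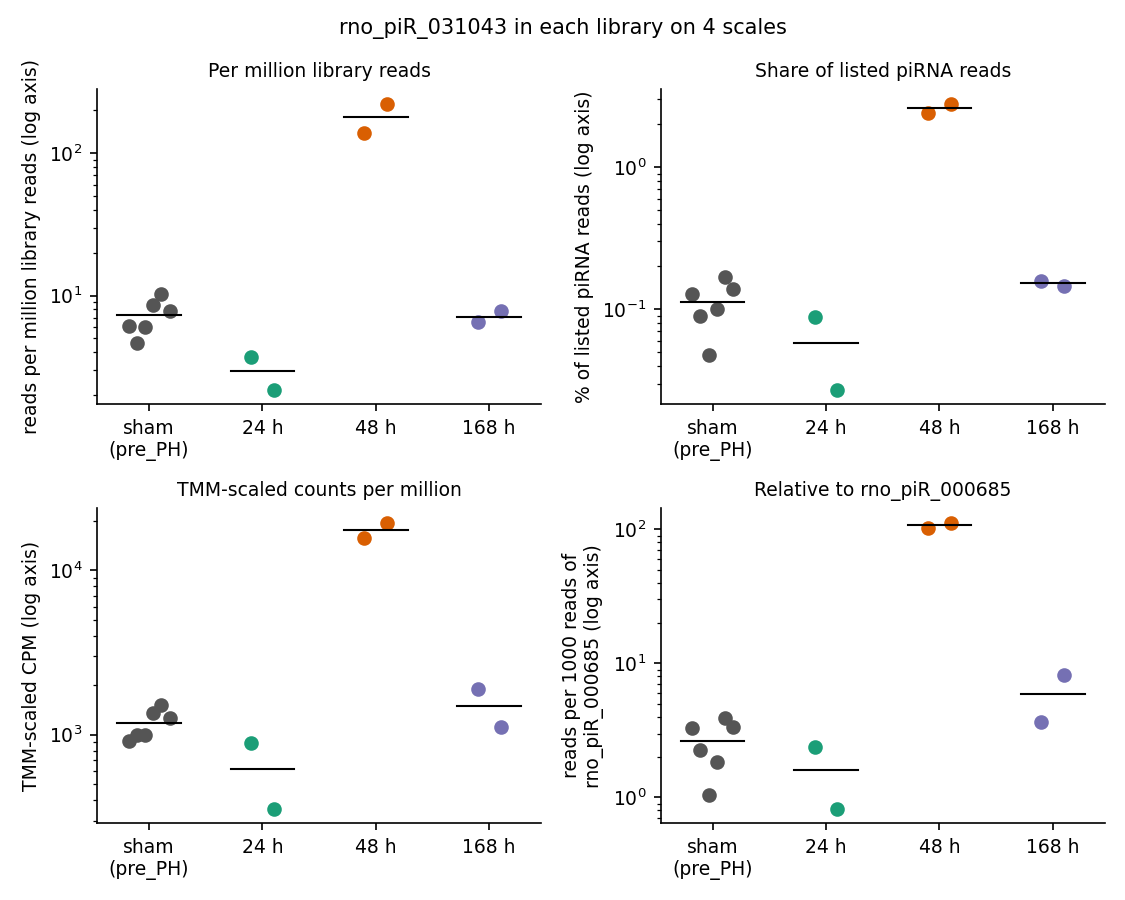
Level of rno_piR_031043 in each of the 12 libraries (points) with the group mean (line), on log axes, as RPM of library reads, percent of listed piRNA reads, TMM-scaled CPM and reads per 1000 reads of rno_piR_000685. On each scale both 48 h libraries lie above all others, and the 168 h libraries lie near the sham libraries, except for 8.23 reads per 1000 of rno_piR_000685 in 168 h replicate 2.

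How closely the 48 h libraries matched depended on what the reads were related to. Replicate 2 had 1.61 times the RPM of replicate 1. The shares of listed piRNA reads, 2.38% in replicate 1 and 2.80% in replicate 2, differed by a ratio of 1.17, and the TMM-scaled values, 15828 and 19533 CPM, by 1.23. Set against rno_piR_000685 in the same library, there were 102 and 112 reads of rno_piR_031043 per 1000, a ratio of 1.10, while the sham libraries had 1.04 to 3.95 per 1000. On that scale the 48 h mean was 41.0 times the sham mean. The denominator itself averaged 1674 ± 450 RPM at 48 h against 3224 ± 1600.4 RPM in sham liver, so this ratio also carries the difference in its denominator.

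The fitted log2 fold change at 48 h against pre_PH was 3.91 ± 0.47 (SE), from 17680.3 ± 2620.1 CPM (n = 2) against 1175 ± 243 CPM (n = 6). Among the 80 piRNAs tested the median was 0.094, and 46.2% passed the test in either direction. Because this contrast chose the piRNA, nothing is read from that count. The size depended on the scaling, the filter and the libraries that entered the fit. It was 4.64 with the authors' library totals, 4.58 with upper-quartile scaling, 4.55 with a stricter count filter and 4.52 with the piRNA total. Leaving out a single library gave 3.10 (48 h replicate 1), 3.27 (48 h replicate 2), 2.88 (24 h replicate 2) and 2.71 (168 h replicate 1). The last 2 libraries are not part of this contrast, and without them 101 and 108 piRNAs were tested in place of 80. Relative to the median of all tested piRNAs the fitted change was 3.82, with a range of 2.07 to 4.44 over the other settings, and 2.71 to 4.03 with 1 library left out.

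A total of 6 piRNAs had larger fitted changes at 48 h, with between 1 and 29 reads in the 6 sham libraries together, beside the 1173 of rno_piR_031043. Of these, 5 passed the filter on low counts only through the 48 h libraries and so had to be high there, and nothing is read from their rarity. Among the 25 tested piRNAs with a mean log2 CPM of at least 10, a level chosen after the values were seen, the next largest fitted change was 1.82 in rno_piR_005567. The median of the other 24 was -0.92, and 2 of them were above 0. All 25 also passed the filter without the 48 h libraries. Its rank by read count was 10th and 9th in the 48 h libraries. By mean RPM it stood 9th, below rno_piR_004288 (240 ± 26.6 RPM) and beside rno_piR_000030 (181 ± 150 RPM, n = 2 each), and it did not differ from either beyond the spread of the libraries.

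**Figure D2:**
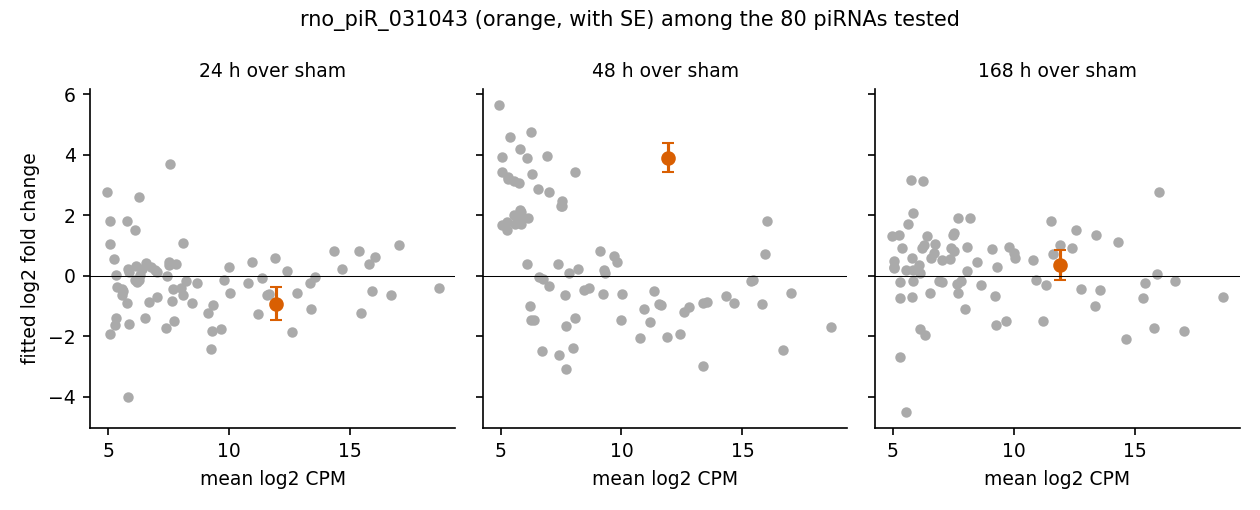
Fitted log2 fold change against sham liver (vertical axis) by mean log2 CPM (horizontal axis) for the 80 piRNAs tested at 24, 48 and 168 h, with rno_piR_031043 in orange and bars of 1 SE. At 48 h the other 6 piRNAs with fitted changes as large as 3.91 have a mean log2 CPM of at most 6.91, and rno_piR_031043 has 11.9. Of these 6, 5 passed the filter on low counts only through the 48 h libraries, so nothing is read from their low level.

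The number of distinct read sequences behind the piRNA differed much less between the groups than its reads. Reads of 1 piRNA can differ in their ends or in single bases. The authors give a count of unique reads per name, read here as the number of different sequences assigned to it. This number was 24, 19, 22, 19, 23 and 26 in the sham libraries, 17 and 14 at 24 h, 27 and 30 at 48 h, and 28 and 24 at 168 h. The 48 h mean was 28.5 ± 2.12 (n = 2) against 22.2 ± 2.79 in sham liver (n = 6). This was a ratio of 1.29, beside a ratio of 25.4 in mean reads. Distinct sequences of all piRNAs averaged 2608 per library at 48 h and 1509 in sham liver. As a percent of these, rno_piR_031043 had 1.12% at 48 h and 1.49% in sham liver on average, a ratio of 0.749. The 28 distinct sequences of 168 h replicate 1 came from 201 reads, and the 27 of 48 h replicate 1 from 2881 reads.

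Reads per distinct sequence were therefore 107 and 235 in the 48 h libraries, against 5.79 to 12.96 in the sham libraries. At 24 h they were 6.35 and 3.57, and at 168 h 7.18 and 8.92. Per 1000 reads, 6.82 ± 3.61 distinct sequences were found at 48 h (n = 2) and 122 ± 35.6 in sham liver (n = 6). Among piRNAs with at least 100 reads in a library, rno_piR_031043 ranked 7th of 29 in reads per distinct sequence in 48 h replicate 1 and 6th of 38 in replicate 2. In the sham libraries it ranked 23rd to 27th of 27 to 32, in the lower part of the order. A count of distinct sequences tends to level off as reads accumulate, and the tables do not give the reads behind each sequence, so how the reads were divided among the sequences was not tested.

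Other piRNAs of a like read count differed widely in this measure. In 48 h replicate 1 the 5 other piRNAs within 2-fold of its read count had 25 to 116 distinct sequences, with a median of 61, and in replicate 2 the 3 such piRNAs had 28 to 110, with a median of 78. In the sham libraries the piRNAs of like read count had 2 to 79, and their median per library lay between 10 and 22. The 19 to 26 of rno_piR_031043 lay above this median in each sham library. Over the 61 piRNAs listed in all libraries, the ratio of mean reads per distinct sequence at 48 h over sham had a median of 0.915. It was 19.4 in rno_piR_031043 and at most 5.60 in the other 60. Its ratio of distinct sequences, 1.29, was 24th of the 61, near the median of 1.18. The piRNA with the next largest ratio of reads, rno_piR_034827 with 22.4, had 25.5 distinct sequences at 48 h on average against 3.50 in sham liver, a ratio of 7.29. However, it averaged 4.83 reads per sham library, and distinct sequences cannot outnumber reads. The abundant rno_piR_005567, with 4451.5 reads per sham library on average, had ratios of 6.29 in reads and 1.42 in distinct sequences. Since these counts belong to the measures that chose rno_piR_031043, they are a description.

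**Figure D3:**
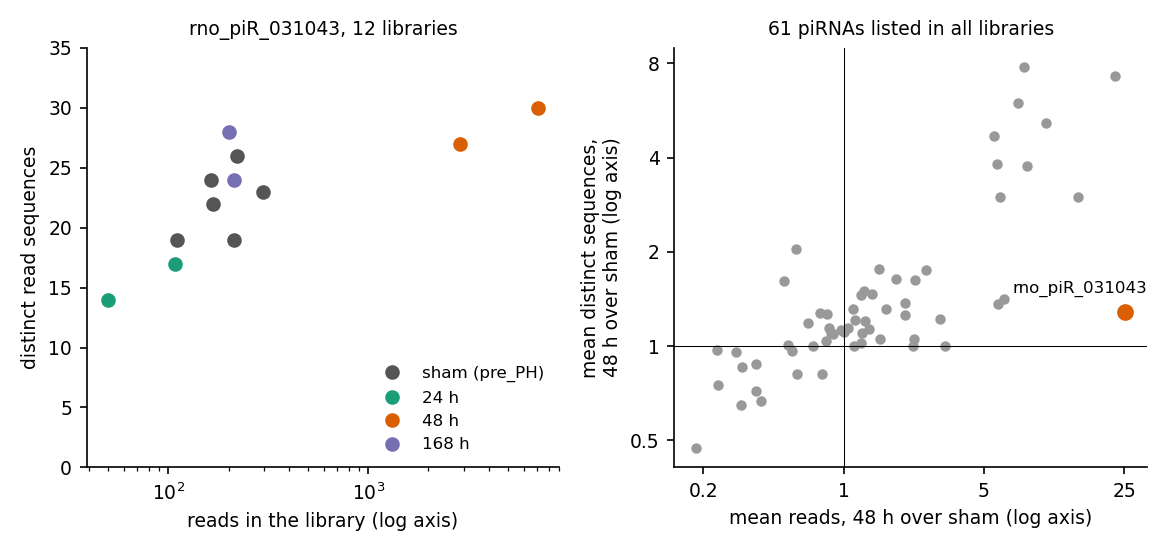
Left, distinct read sequences of rno_piR_031043 by its reads (log axis) in the 12 libraries, from 14 sequences at 50 reads to 30 at 7039. Right, the 48 h over sham ratio of mean distinct sequences against that of mean reads (log axes) for the 61 piRNAs listed in all libraries, where rno_piR_031043 has the highest ratio of reads, 25.4, with a ratio of distinct sequences of 1.29.

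By 168 h, when regrowth is largely over, the level was back within the sham range on 2 of the 4 scales for both libraries. The libraries had 201 and 214 reads, or 6.48 RPM (95% counting interval 5.62 to 7.44) and 7.79 RPM (6.78 to 8.91). The mean was 7.14 ± 0.93 RPM at 168 h (n = 2) against 7.27 ± 2.06 RPM in sham liver (n = 6), a ratio of 0.982, and the exact permutation test gave p = 1 (adjusted p = 1). The share of piRNA reads, 0.159% and 0.146%, was also inside the sham range. On the TMM scale replicate 1 stood above it with 1889 CPM and replicate 2 inside it with 1119 CPM, and relative to rno_piR_000685 replicate 2 stood above it, with 8.23 reads per 1000, and replicate 1 inside it with 3.63. The fitted log2 fold change was 0.35 ± 0.51 (SE) and did not pass (edgeR quasi-likelihood test, adjusted p = 0.743). The median over the 80 piRNAs tested was 0.33, and 6.25% of them passed. The sign of this fitted change was not stable, since it was negative with the authors' library totals, with the stricter filter and without pre_PH replicate 4, 24 h replicate 1 or 2, 48 h replicate 1 or 168 h replicate 1. A test that does not pass leaves a difference within this error possible. By mean RPM rno_piR_031043 stood 24th again, between rno_piR_005791 (7.58 ± 0.46 RPM) and rno_piR_005854 (6.46 ± 3.94 RPM, n = 2 each), from neither of which it differed beyond the spread of the libraries.

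The steps between the times followed from these levels. The 48 h mean was 61.7 times the 24 h mean in RPM, with a fitted log2 fold change of 4.83 ± 0.74 (SE), and 17.5% of the 80 piRNAs passed in that comparison. That fit gave 5.94 with the authors' library totals and 5.49 with the piRNA total, 3.85 without 24 h replicate 2 and 3.86 without 168 h replicate 1. The 168 h mean was 0.0394 of the 48 h mean, with a fitted log2 fold change of -3.56 ± 0.70 (SE), and 37.5% passed there. It was -4.67 with the authors' library totals, -4.59 without pre_PH replicate 4 and -2.74 without 168 h replicate 1. No test is given for either step, because both use the 48 h libraries.

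The comparison of 168 h with 24 h leaves out the 48 h libraries. The counts of all groups were known when the piRNA was chosen, so this comparison is not independent of that choice. Its fitted value also shares the scaling and the estimate of spread with all 12 libraries. Both 168 h libraries lay above both 24 h libraries, at 7.14 ± 0.93 RPM against 2.94 ± 1.07 RPM (n = 2 each), a ratio of 2.43. On this scale 33.8% of the 80 piRNAs had both 168 h libraries above both at 24 h. The fitted log2 fold change was 1.28 ± 0.65 (SE) beside a median of 0.56 over all tested, and it did not pass (edgeR quasi-likelihood test, adjusted p = 0.346), where 1.25% of the 80 did. The fitted value was 0.40 without pre_PH replicate 4 and 0.62 without 24 h replicate 2. With 48 h replicate 2 left out it was 1.48 (edgeR adjusted p = 0.0830). In order of mean RPM the groups ran 24 h, 168 h, sham and 48 h, and the neighbours 168 h and sham did not differ beyond their spread, while the libraries of 24 h and 168 h, and those of sham and 48 h, did not overlap.

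The likeness of other piRNAs to the profile of rno_piR_031043 was measured as the root mean square difference over the 12 libraries of log2 CPM, each piRNA centred on its own sham mean. The libraries are shared by all piRNAs, so it describes these profiles and is no evidence of a common control. The 5 nearest of 79 were rno_piR_011266 (0.756), rno_piR_034827 (0.782), rno_piR_033815 (0.791), rno_piR_007474 (0.849) and rno_piR_002100 (0.897), against a median of 1.799 over all 79. Of these 5, 4 passed the filter on low counts only through the 48 h libraries, so enough reads at 48 h were a condition of their being compared, as it was for 18 of the 80.

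The nearest, rno_piR_011266, had 28 and 44 reads at 48 h and 5 reads in the sham libraries together. For rno_piR_034827 the 48 h reads were 135 and 82, against 29 in sham liver. For rno_piR_033815 they were 57 and 42, against 11. The counts of rno_piR_007474 were 22 and 39 at 48 h, and 11 in sham liver. Those of rno_piR_002100 were 90 and 115, and 60. None of these 5 exceeded 135 reads in a library, where rno_piR_031043 had 2881 and 7039 at 48 h. At 24 h their fitted log2 fold changes lay on both sides of 0, with 0.21 ± 0.84 (SE) for rno_piR_034827, 0.13 ± 0.66 for rno_piR_002100, -0.36 ± 1.60 for rno_piR_011266 and -1.38 ± 1.40 for rno_piR_007474, and rno_piR_033815 had no read in either 24 h library. The differences from the -0.92 ± 0.55 of rno_piR_031043 were not tested.

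**Figure D4:**
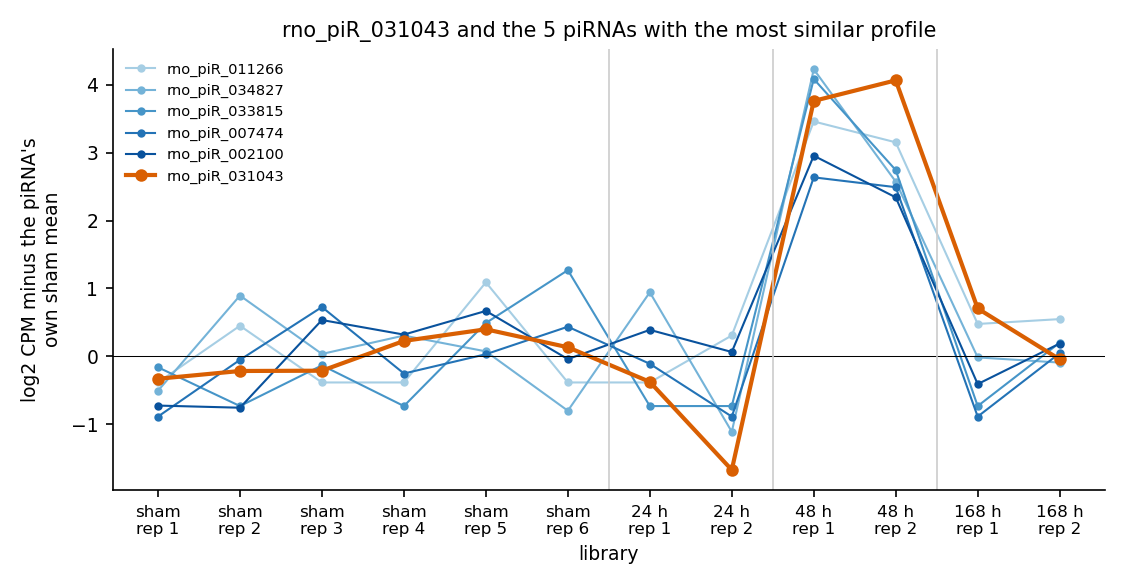
Log2 CPM minus the piRNA's own sham mean (vertical axis) in the 12 libraries (horizontal axis) for rno_piR_031043 (thick orange line) and the 5 piRNAs closest to it (blue lines). All 6 are highest in both 48 h libraries, and rno_piR_031043 has the lowest plotted value of the 6 in 24 h replicate 2. In that library rno_piR_033815 and rno_piR_007474 had 0 CPM. The prior count of 2 then sets the lowest value they can show, so nothing is read from that order.

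Another 2 piRNAs high at 48 h are set beside it, all values being relative to the same sham libraries. The abundant rno_piR_005567 had 622 and 1369 RPM at 48 h against 59.3 to 265 RPM in sham liver, and at 168 h it had 155 and 2221 RPM, so that 1 library was high where rno_piR_031043 had 6.48 and 7.79 RPM. The rare rno_piR_035899 had 16 and 31 reads at 48 h. It had 1 read in the 168 h libraries together and 1 read in all sham libraries together. This piRNA passed the filter on low counts only through the 48 h libraries, so nothing is read from its low counts at the other times. Only 2 other listed names carried a number within 100 of that of rno_piR_031043. These were rno_piR_030946 and rno_piR_031129, with 2 and 3 reads in 1 library each. How the authors treated reads that match several names is not stated in these sources, so part of the reads could belong to a near-identical entry.

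**Figure D5:**
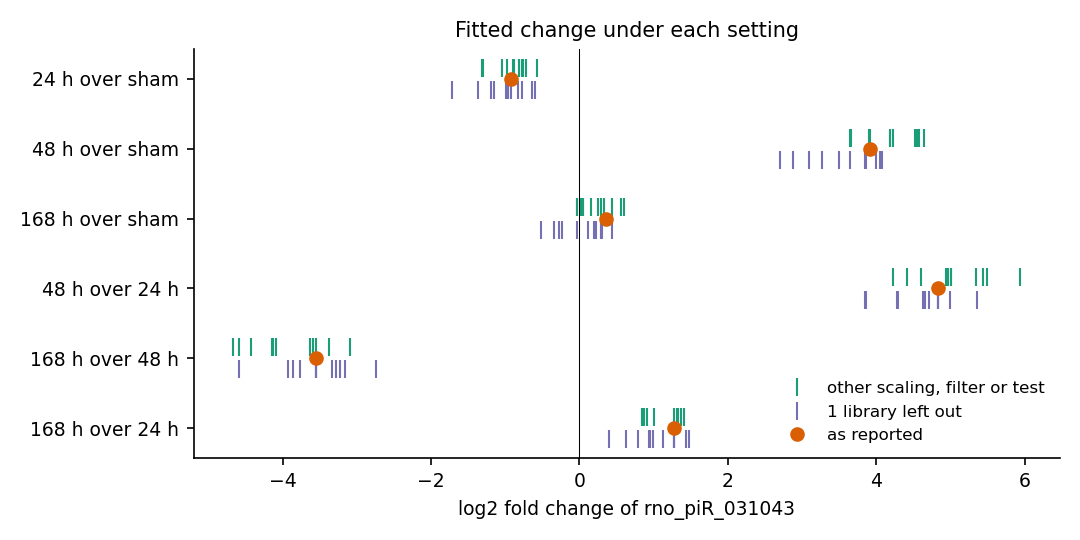
Fitted log2 fold change of rno_piR_031043 (horizontal axis) in the 6 comparisons of groups (rows), as reported (orange point), with another scaling, filter or test (green ticks) and with 1 library left out (purple ticks). The changes at 48 h keep their sign in all these settings, between 2.71 and 4.64 against sham liver, while the change at 168 h against sham liver lies on both sides of 0.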

How the data were processed

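Per the labels' protocols, total RNA of 12 rat liver samples was extracted with TRIzol, made into libraries with the Illumina TruSeq small RNA kit, gel purified and sequenced. For each library the authors deposited whole-number read counts per piRNA and counts of unique reads, not normalized. The latter were taken from their header to be distinct read sequences. They also deposited the percent of each piRNA among all reads and among piRNA-mapped reads, per the file headers. CASAVA 1.8, cutadapt, DESeq 1.14.0 and build rn4 are named in the submitters' processing notes without a role; the sources used here do not name the aligner or the mismatches allowed.

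Library totals were obtained as read count over percent of all reads, 1 constant per library. Listed piRNA reads were 99.2 to 99.9% of the mapped total that the other percent implies. Names not listed were taken as 0. Counts of all 12 libraries in 4 groups entered 1 fit with edgeR 4.0.16 (R 4.3.3, TMM scaling, robust quasi-likelihood). The filter filterByExpr left 80 piRNAs. Benjamini-Hochberg adjustment was over the 80, with a threshold of 0.05. The fit was first run on simulated counts with less spread than these, so that check does not give its error rates here. The SE is the fold change over the square root of F. Alternatives were other scalings and filters, DESeq2 1.42.0, limma-voom (limma 3.58.1), a replicate block and leaving out each library. Likeness used a prior count of 2. The piRNA, the lists and the tests were chosen with earlier results of these data known. Named piRNAs were, by rule, the 5 nearest in profile, the abundance neighbours, names within 100 in number with at least 10 reads (none had as many, and the 2 with fewer are given), rno_piR_000685, rno_piR_005567 and rno_piR_035899. Intervals (95%) are exact Poisson for RPM and Wilson for shares; they cover counting error only, since PCR copies are not independent molecules.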

Additional observations from a re-analysis of the deposited data

Results flagged for a closer look

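Among the 6 sham libraries, 3 values stood far from the rest by Dixon's criterion, which flags about 1 in 20 groups of normally distributed values by chance. That rate need not hold for ranks or counts near 0. The highest and lowest library were checked for several measures of rno_piR_031043. They were also checked for the RPM of rno_piR_000685, rno_piR_005567, rno_piR_035899 and the 5 nearest profiles. The rank of rno_piR_031043 by read count was 28 in pre_PH replicate 2, and 22 to 24 in the other 5. For rno_piR_011266 the highest sham library had 0.139 RPM, from 4 reads. For rno_piR_035899 it had 0.0356 RPM, from the 1 read found in the sham libraries. No other sham library had a read of rno_piR_035899, so this flag was fixed by that 1 read. No explanation was tested.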

How the results depend on the processing

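The fitted change of rno_piR_031043 kept its sign in all 11 other settings and with each of 12 libraries left out for the comparisons other than 168 h against sham liver, and no tested comparison passed in any setting. At 48 h against sham liver it was 4.64 with the authors' library totals, 4.58 with upper-quartile scaling, 4.55 with a mean of at least 10 reads, 4.52 with the piRNA total, and 2.71 to 4.08 with 1 library left out. At 48 h against 24 h the same 4 settings gave 5.94, 5.34, 5.43 and 5.49, TMM without the 10 most abundant piRNAs 4.23, and leaving out 1 library 3.85 to 5.36. At 168 h against 48 h they gave -4.67, -4.43, -4.59 and -4.09, DESeq2 size factors -4.14 in edgeR and -4.14 in DESeq2, no filter -3.10, and leaving out 1 library -4.59 to -2.74. At 168 h against sham liver it was -0.027 with the authors' totals, -0.034 with the stricter filter, and -0.51 to 0.44 with 1 library left out. The ranges with 1 library left out were -1.71 to -0.60 at 24 h against sham liver, where the adjusted p ran from 0.0876 to 0.669, and 0.40 to 1.48 at 168 h against 24 h (adjusted p 0.0830 to 0.838). The cause of these shifts was not tested; a group left with 1 library was assumed to vary like the others.

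Replicate numbers are shared by the labels, but nothing says what they mark, and the correlation of same-numbered deviations ran from -0.354 to 0.377 over 6 pairs of groups. With a replicate block the fitted change was -0.71 at 24 h and 0.60 at 168 h against sham liver, and 1.31 at 168 h against 24 h. None passed (edgeR adjusted p = 0.707, 0.706 and 0.552).

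Ratios of mean RPM with 1 library left out, added after the data were seen, ran from 0.300 to 0.508 (24 h over sham), 47.3 to 83.0 (48 h over 24 h) and 1.93 to 3.27 (168 h over 24 h). The 48 h over sham ratio of distinct sequences per 1000 reads was 0.0557, with 0.0348 without 48 h replicate 1 and at most 0.0765 with another library left out. For another measure, its percent of all distinct piRNA sequences, the 48 h over sham ratio was 0.749. Of the 5 nearest profiles, 3 were kept with a prior count of 0.5 or without 24 h replicate 2, and 5 with RPM or any other library left out.

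As reported, 2 piRNAs were called at 24 h (2.5% of the 80 tested), 37 at 48 h (46.2%) and 5 at 168 h (6.25%) against sham liver. Over the other settings these counts were 1 to 5, 18 to 42 and 0 to 8. At 48 h against 24 h 14 were called (17.5%), at 168 h against 48 h 30 (37.5%) and at 168 h against 24 h 1 (1.25%). Over the other settings these were 3 to 33, 17 to 37 and 0 to 5. The counts do not share 1 denominator. The number tested was 60 with a mean of at least 10 reads, 701 with no filter, and 58 to 81 with only the 2 groups compared. The lowest read count, 50 in 24 h replicate 2, has a 95% counting interval of 37.1 to 65.9 reads, and each time had only 2 libraries.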
